A study of Bos taurus with 9 samples.

Results

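SFRP2, DLK1, NNAT and FGF2 are genes of proteins that are known from preadipocytes, the fat cell precursors in the stroma of adipose tissue. Every probe set of the array that carried exactly 1 of these symbols was taken, which gave 7 of 24016 probe sets for 4 of 9155 genes: 1 for SFRP2 and 2 each for DLK1, NNAT and FGF2. The genes were chosen by name with their levels in the tissues known, so the levels and differences of these 7 probe sets are given as a description, without a test. The samples were abdominal adipose tissue, subcutaneous adipose tissue and longissimus dorsi muscle, the skeletal muscle along the back, with 3 arrays each. All came from male Yan yellow cattle of 24 months and similar genetic background that were reared alike, and the tissues were taken at slaughter. The labels name no treatment. RNA was measured on 1-colour Affymetrix arrays, and the labels describe its extraction from adipose tissue alone. They speak of 9 bulls without tying samples to animals, so every error and p-value measures the spread between these arrays, whose number limits the precision.

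A preadipocyte divides and stays undifferentiated until signals from its surroundings let it turn into a fat cell. SFRP2 is a secreted frizzled-related protein, which binds Wnt ligands outside the cell and alters Wnt signalling, a brake on fat cell formation. DLK1, also called preadipocyte factor, is a membrane protein of the Notch ligand family that can be shed from the cell and that holds mouse preadipocytes undifferentiated. It is also present in muscle. NNAT, neuronatin, is a small membrane protein of the endoplasmic reticulum that promotes fat cell differentiation in mouse cells. DLK1 and NNAT are known as imprinted genes, of which only the copy from the father is active. FGF2 is a fibroblast growth factor that is held on heparan sulfate and drives the division of stromal and endothelial cells.

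The values are log2 of the deposited intensity. The array medians lay between 5.87 and 5.92 on the 6 fat arrays and between 5.75 and 5.79 on the 3 muscle arrays, and a level under 6 is called dim here. The tissues carried their own markers. The intensities of 13 fat cell markers added up to between 47843 and 60945 on a fat array and to between 7746 and 13302 on a muscle array. Those of 12 muscle fibre markers added up to between 1782 and 3763 on a fat array and to between 86785 and 95859 on a muscle array. The GAPDH controls gave a 3'/5' ratio, which reflects RNA quality, of 1.21 to 1.74 on the fat arrays and 0.94 to 1.01 on the muscle arrays. The same ratio of the actin controls was 3.95, 5.69 and 2.24 on abdominal replicates 1, 2 and 3, against 8.17, 5.59 and 3.86 on subcutaneous replicates 1, 2 and 3 and 0.96 to 1.04 on the muscle arrays. Both ratios moved with every difference between fat and muscle below, 2 of 3 subcutaneous actin ratios lay within those of abdominal fat and 1 above, and the part of RNA quality in the results was not tested.

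SFRP2 was highest in abdominal fat, intermediate in subcutaneous fat and lowest in muscle. It read 10.60, 11.03 and 11.12 on abdominal replicates 1, 2 and 3, then 8.03, 8.07 and 9.32 in the subcutaneous depot, and 6.69, 5.90 and 7.08 in muscle. No array of a tissue overlapped with those of another, and the smallest gap, between subcutaneous fat and muscle, was 0.95. The abdominal mean was 10.92 ± 0.28 (SD, n = 3), the subcutaneous mean 8.47 ± 0.73 and the muscle mean 6.56 ± 0.60. Abdominal fat was thus 4.36 ± 0.38 (SE) above muscle on the log2 scale, a 20.6-fold difference, and subcutaneous fat was 1.92 ± 0.38 above muscle. Between the depots the difference was 2.45 ± 0.38, 5.45-fold. Muscle replicate 2, the lowest for SFRP2 and for the brightest FGF2 probe set, also had the lowest sum of fat cell markers of the muscle arrays (7746, against 13280 and 13302 on replicates 1 and 3), and the part of fat within the muscle samples was not tested. In bulk tissue, fewer cells of a type and less RNA per cell cannot be told apart, here or for the genes below.

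FGF2 followed the same order. Its brightest probe set read 9.92, 9.72 and 9.98 in abdominal fat, 8.31, 8.84 and 8.47 in the subcutaneous depot, and 7.06, 6.38 and 6.95 in muscle. No arrays overlapped between tissues. The differences were 3.08 ± 0.20 (SE) for abdominal fat minus muscle, 1.74 ± 0.20 for subcutaneous fat minus muscle and 1.33 ± 0.20 between the depots, the last a 2.52-fold difference. The other FGF2 probe set was dim on every array. It read 5.72, 5.56 and 5.09 in abdominal fat, 4.40, 4.40 and 4.02 in the subcutaneous depot, and 3.63, 3.73 and 3.92 in muscle, the same order of tissues. Its difference from muscle was smaller, 1.70 ± 0.18 in abdominal and 0.51 ± 0.18 in subcutaneous fat, while its difference between the depots, 1.19 ± 0.18, was close to that of the brighter probe set.

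**Figure D1:**
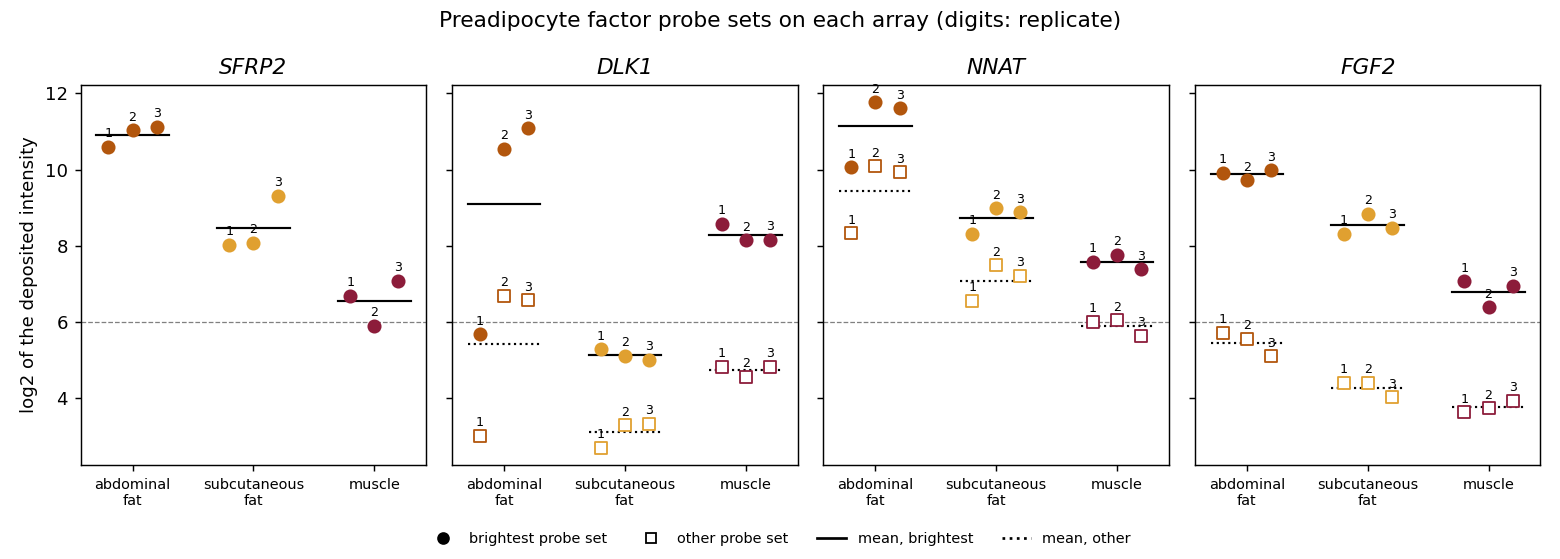
Log2 intensity of each probe set of SFRP2, DLK1, NNAT and FGF2 on every array, by tissue; filled circles are a gene's brightest probe set, open squares its other probe set, lines are means of 3 arrays, digits give the replicate and the dashed grey line marks 6. DLK1 on abdominal replicate 1 stands at 5.68, near the subcutaneous arrays, while replicates 2 and 3 stand at 10.55 and 11.08.

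NNAT was also highest in abdominal fat. Its brightest probe set read 10.06, 11.77 and 11.61 on abdominal replicates 1, 2 and 3, against 8.31, 8.98 and 8.88 in subcutaneous fat and 7.58, 7.76 and 7.39 in muscle. The other probe set read 8.33, 10.09 and 9.93 in abdominal fat, 6.55, 7.48 and 7.21 in the subcutaneous depot, and 6.01, 6.05 and 5.64 in muscle. Both probe sets had tissues that did not overlap, and in abdominal fat both put replicate 1 lowest. They gave nearly equal differences: 3.57 ± 0.39 and 3.55 ± 0.42 (SE) for abdominal fat minus muscle, 1.15 ± 0.39 and 1.18 ± 0.42 for subcutaneous fat minus muscle, and 2.42 ± 0.39 and 2.37 ± 0.42 for abdominal minus subcutaneous fat. Over the 9 arrays the 2 probe sets of NNAT had a Pearson correlation of 0.999, given as a description since the arrays fall into tissues.

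DLK1 did not follow the order of the other genes and was split within abdominal fat. Its brightest probe set read 5.68, 10.55 and 11.08 on abdominal replicates 1, 2 and 3, against 5.28, 5.10 and 5.01 in subcutaneous fat and 8.58, 8.14 and 8.16 in muscle. Abdominal replicates 2 and 3 lay above every muscle array, and replicate 1 lay below every muscle array and 0.40 above the highest subcutaneous array. The other DLK1 probe set had the same split at a lower level, with 3.01, 6.69 and 6.57 in abdominal fat, 2.69, 3.29 and 3.32 in the subcutaneous depot, and 4.82, 4.56 and 4.82 in muscle. On it, abdominal replicate 1 lay within the subcutaneous arrays.

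The abdominal mean of DLK1, 9.10 ± 2.98 (SD, n = 3), therefore describes none of its arrays. Subcutaneous fat stood at 5.13 ± 0.14, dim, and muscle at 8.29 ± 0.25, so subcutaneous fat was lower than muscle by a difference of -3.16 ± 1.11 (SE). That SE is wide because the fit shares the spread of the abdominal arrays. Abdominal fat minus muscle was 0.81 ± 1.11, became 2.52 without abdominal replicate 1 and turned to -0.18 without abdominal replicate 3. Abdominal minus subcutaneous fat was 3.97 ± 1.11, 5.69 without abdominal replicate 1, 3.25 without replicate 2 and 2.98 without replicate 3. The range of the DLK1 arrays was 5.41 in abdominal fat, 0.27 under the skin and 0.44 in muscle.

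A split of this size was rare on these arrays. The abdominal range of 5.41, a 42.4-fold difference between replicates, was exceeded by 3 of the 24016 probe sets, and the median range was 0.28. Picked after their values were seen, those 3 were a probe set of the class II histocompatibility gene BOLA-DQB1 (range 7.58), an unnamed one (6.40) and one of the glutathione transferase GSTA2 (5.74), and in none of them were abdominal replicates 2 and 3 both above replicate 1. The other DLK1 probe set had a range of 3.68, exceeded by 19 probe sets. Among those 19, an unnamed one with a range of 4.41, also picked after its values were seen, had replicates 2 and 3 far above replicate 1. It read 2.03, 6.44 and 5.96 on abdominal replicates 1, 2 and 3. The same replicates read 2.76, 5.70 and 4.00 in subcutaneous fat, and 2.50, 4.26 and 3.11 in muscle. NNAT had ranges of 1.71 and 1.76, exceeded by 0.887% and 0.791% of probe sets. SFRP2, at 0.52, and FGF2, at 0.26 and 0.63, were exceeded by 18.3%, 52.8% and 12.3%.

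**Figure D2:**
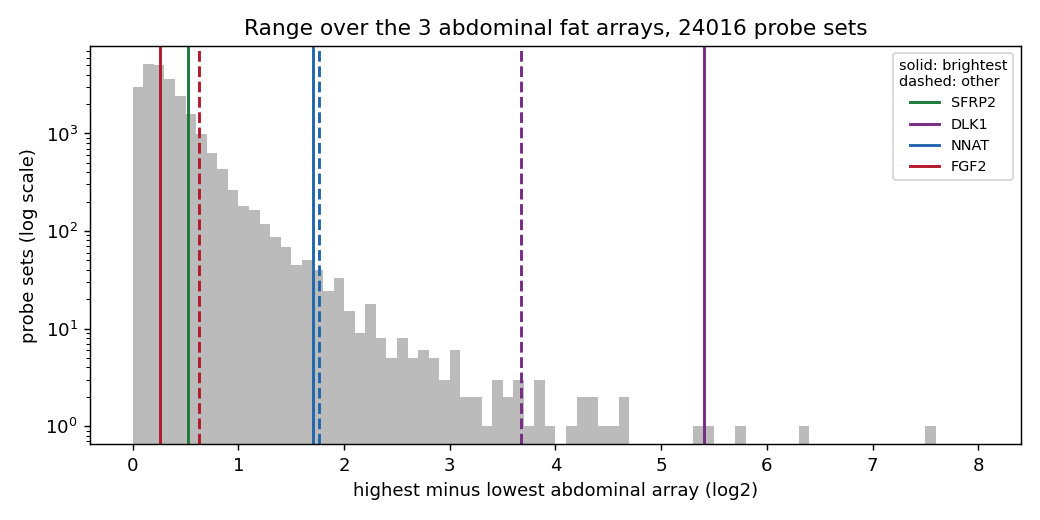
Histogram, with a logarithmic count axis, of the highest minus the lowest of the 3 abdominal fat arrays for all probe sets, on the log2 scale; coloured lines mark SFRP2, DLK1, NNAT and FGF2, solid for the brightest and dashed for the other probe set. The DLK1 lines at 5.41 and 3.68 lie far to the right, the NNAT lines at 1.71 and 1.76 lie between, and those of SFRP2 and FGF2 lie at 0.63 or less.

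Several measures were set beside the DLK1 split. SFRP2 and FGF2 read 10.60 and 9.92 on abdominal replicate 1, close to the other abdominal arrays and above every subcutaneous array. Muscle fibre markers added up to 3024, 3763 and 1782 on abdominal replicates 1, 2 and 3, against 86785 or more on a muscle array. The sum of 20 preadipocyte and stromal markers was 31378, 32528 and 38790, and that of 13 fat cell markers 60945, 56791 and 57536. Macrophage markers, 7 genes, added up to 5386, 10703 and 8626 on abdominal replicates 1, 2 and 3, against 5453, 11032 and 10981 on subcutaneous replicates 1, 2 and 3. Of the 6 measured genes on a list for the lining of the abdominal cavity, the sum was 2335, 1868 and 1628, and the defining marker MSLN read 6.32, 4.39 and 6.41 on the abdominal arrays, 3.97 to 4.20 on the subcutaneous and 4.13 to 4.83 on the muscle arrays. KRT19 read 8.16, 5.38 and 7.26 on abdominal replicates 1, 2 and 3, and EZR, of the same list, read 10.77, 10.74 and 10.29. The GAPDH 3'/5' ratio of abdominal replicate 1, 1.42, lay between those of replicates 2 (1.62) and 3 (1.26), as did its actin ratio. The part of these measures in the split was not tested.

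Counted over probe sets, 5 of 7 had every abdominal array above every muscle array, while 26.1% of all probe sets did, and none lay wholly below, where 28.8% of all probe sets did. In subcutaneous fat 5 lay wholly above muscle and 2, both of DLK1, wholly below, against 26.7% and 27.6% of all probe sets. Between the depots, 6 of 7 had every abdominal array above every subcutaneous array, against 9.69% of all probe sets, and none wholly below, against 13.9%. The exception was the dimmer DLK1 probe set. Since the genes were chosen with these contrasts known, nothing is read from these counts. The median difference of the 7 probe sets was 3.08 for abdominal fat minus muscle, 1.15 for subcutaneous fat minus muscle and 2.37 between the depots, beside -0.07, -0.05 and -0.02 over all probe sets. Both comparisons with muscle use the same 3 muscle arrays.

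**Figure D3:**
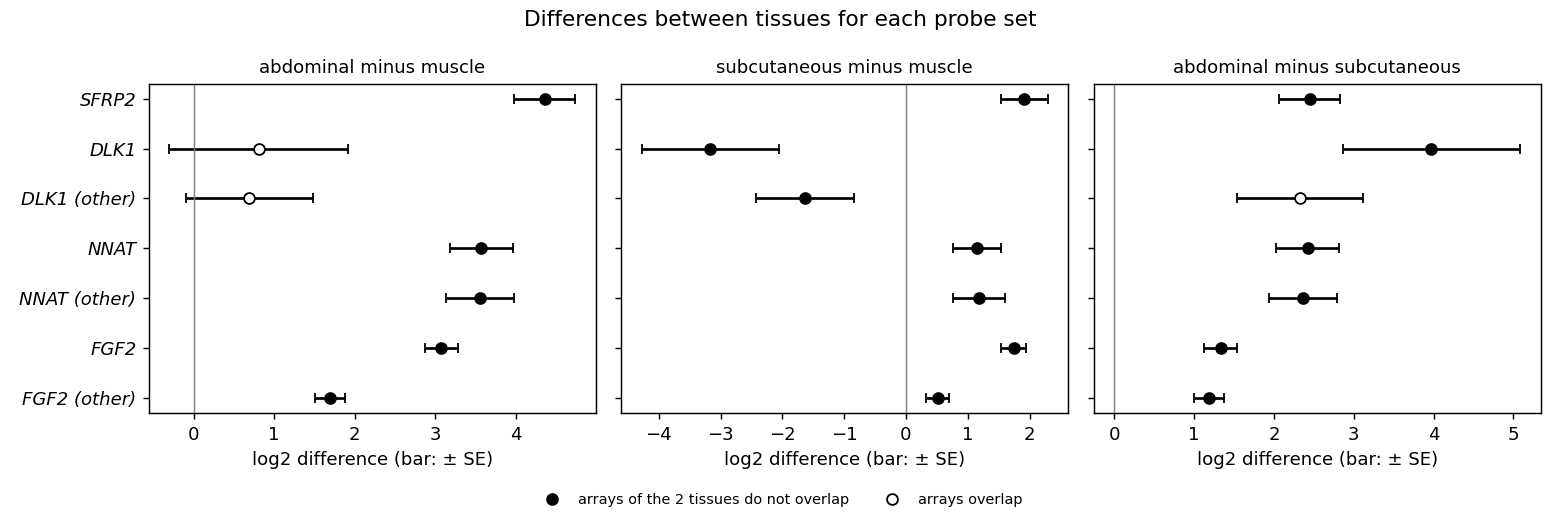
Log2 differences (points) with the moderated SE (bars) for each probe set for each depot minus muscle and for abdominal minus subcutaneous fat; filled points mark tissues whose arrays do not overlap. All 7 probe sets are above 0 between the depots, and both DLK1 probe sets lie below 0 in subcutaneous fat minus muscle.

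The other genes of each pathway were tested with limma on 1 probe set a gene, with p-values adjusted over all 24016 probe sets. The lists of these genes were also chosen with earlier results of these data known, so their counts are no independent test of a pathway. Adipose tissue, taken as both depots with equal weight, was significantly higher than muscle at 26.2% of all probe sets and lower at 26.4%, or at 2926 and 2699 of the 9155 genes with a symbol. Between the depots 0.641% of probe sets were higher and 0.666% lower in abdominal fat. Of the 197 distinct genes on the lists, 2 passed between the depots, ADAM10 and the endothelial receptor TEK. The share of all probe sets with an unadjusted p under 0.05 between the depots was not counted. Counts at that cut-off below therefore have no background beside them, and nothing is read from them.

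Wnt antagonists related to SFRP2 differed in direction. Of 9 measured, 2 were higher in adipose tissue than in muscle, 3 lower, and 4 did not pass, with a median of 0.00 beside -0.02 over all genes. SFRP5, a close relative, rose by 1.89 ± 0.16 (SE, adjusted p = 6.61e-06), with 8.89 to 9.23 on the abdominal, 8.49 to 8.70 on the subcutaneous and 6.69 to 7.28 on the muscle arrays. SFRP4 rose by 1.47 ± 0.39 (adjusted p = 0.0106), a call that was lost without muscle replicate 2 (adjusted p = 0.0552). By depot it was 2.50 above muscle in subcutaneous fat (adjusted p = 0.00137), while abdominal fat minus muscle was 0.44 (adjusted p = 0.461). FRZB, another frizzled-related antagonist, fell by 2.34 ± 0.14 (adjusted p = 1.07e-06) and was dim on every fat array. KREMEN2, a receptor for DKK antagonists (-0.57, adjusted p = 0.031, lost under 7 of 15 alternatives, up to 0.14), and SOST (-0.50, adjusted p = 0.00255) were the other lower genes. Both were dim on every array.

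SFRP4 stood the other way round from SFRP2 in the depots. It read 8.86, 8.69 and 10.38 in abdominal fat, against 11.15, 11.57 and 11.40 in subcutaneous fat, and 9.20, 8.05 and 9.38 in muscle. The abdominal arrays overlapped with those of muscle. The arrays of the depots did not overlap, yet the difference of -2.06 ± 0.45 did not pass over all probe sets (adjusted p = 0.0627) and passed under 5 of 16 alternatives, with adjusted p-values from 0.0222 to 0.19. No Wnt antagonist passed between the depots in limma, and 1 higher and 1 lower had an unadjusted p under 0.05.

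Of 7 Wnt receptors 4 rose in adipose tissue and 1 fell, and of 17 Wnt effectors and targets 9 rose, 2 fell and 6 did not pass, with medians of 1.02 and 0.57. The receptor FZD4 rose by 3.29 ± 0.12 (adjusted p = 3.49e-08), FZD1 by 1.89, ROR2, dim throughout, by 1.37 and the co-receptor LRP5 by 1.02. The receptor LGR4 fell by 0.94 ± 0.21 (adjusted p = 0.00437). The Wnt transcription factors TCF7 (2.64) and TCF7L2 (2.21), the secreted CCN5 (2.55) and MYC (1.79) were among the higher genes, and the corepressor TLE1 (-1.58) and the signal transducer DVL1 (-1.23) were the lower ones. AXIN2, a common Wnt target (-0.35, adjusted p = 0.105), and the Wnt transcription factor LEF1 (0.32, adjusted p = 0.146) did not pass. Both were dim on every array. Among 6 ligand and secretion genes 2 rose and 2 fell. The Wnt enhancer RSPO3 fell by 2.19 ± 0.40 (adjusted p = 0.00113) and WNT6, dim on every array, by 0.56. WLS, which carries Wnt proteins to the cell surface, rose by 0.62. WLS lost its call without muscle replicate 1 or 2 (adjusted p up to 0.0813), and with WNT11 lost as well none of the 6 genes was then higher. WNT11 was 0.41 higher (adjusted p = 0.049) and lost this call under 13 of 16 alternatives (adjusted p up to 0.362). No Wnt ligand, receptor or effector passed between the depots in limma, while 4 effectors were higher, and 1 effector and 1 receptor lower, at an unadjusted p under 0.05.

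Notch genes, the family to which DLK1 is related, rose in adipose tissue for 7 of 10 measured, fell for 2 and had a median of 1.41. The canonical ligands DLL4 (1.80 ± 0.11, adjusted p = 1.17e-06) and JAG1 (1.78 ± 0.14, adjusted p = 4.42e-06), the endothelial receptor NOTCH4 (1.53) and the inhibitor NUMB (1.56) were higher. DLK2, the closest relative of DLK1, fell by 0.41 ± 0.10 (adjusted p = 0.0071), and HES6 fell by 1.10. Both were dim on every fat array. ADAM10, a protease that sheds membrane proteins such as Notch, read 9.87, 9.80 and 10.03 in abdominal fat against 8.99, 8.99 and 8.93 in subcutaneous fat. The difference, 0.93 ± 0.13, passed (adjusted p = 0.0148). This call was lost without abdominal replicate 3, without subcutaneous replicate 1 or 3, or with a title number block (adjusted p up to 0.0804). When each gene was read from its averaged probe sets instead of the brightest, no Notch gene was called higher in abdominal than in subcutaneous fat.

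Imprinted genes other than DLK1 and NNAT had 9 of 20 higher, 3 lower and 8 not passing, with a median of 0.43. Higher were the cell cycle inhibitor CDKN1C (2.69 ± 0.27, adjusted p = 2.16e-05), the fetal growth factor IGF2 (2.15 ± 0.17, adjusted p = 4.46e-06) and the transcription factor PLAGL1 (1.24). GRB10, an adaptor that dampens insulin receptor signalling, fell by 3.06 ± 0.13 (adjusted p = 1.18e-07) and was dim on every fat array. Within abdominal fat IGF2 read 11.39, 11.44 and 11.44 on replicates 1, 2 and 3, with no array apart. Replicate 1 was lowest for PHLDA2, a growth-restraining imprinted gene named after its values were seen, which read 3.68, 5.69 and 5.08 on abdominal replicates 1, 2 and 3, against 3.45 to 4.14 on the subcutaneous and 4.14 to 4.41 on the muscle arrays. It was dim on every array, and its replicate 1 lay within the subcutaneous arrays and below every muscle array, as for the other DLK1 probe set. PEG10, also named after its values were seen, read 5.24, 6.40 and 6.36 on abdominal replicates 1, 2 and 3, against 6.26 to 8.06 on the subcutaneous and 5.72 to 6.08 on the muscle arrays. No imprinted gene of the list passed between the depots in limma, and 5 higher and 3 lower had an unadjusted p under 0.05.

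MEG3 is a long noncoding RNA gene next to DLK1 in the RefSeq table and is active on the mother's copy. Its brightest probe set read 6.74, 6.98 and 6.55 in abdominal fat, 7.0, 6.96 and 6.75 in the subcutaneous depot, and 7.24, 7.43 and 7.15 in muscle, so replicate 1 did not stand apart on this probe set. It was 0.45 lower in adipose tissue than in muscle (adjusted p = 0.0149), a call lost without muscle replicate 2 (adjusted p = 0.0636), and 1 more of its 5 probe sets passed, at -0.64. Its probe sets disagreed. In abdominal fat minus muscle the brightest was at -0.52 (adjusted p = 0.0163) and another at -0.62 (adjusted p = 0.0068), while 2 others were higher, at 0.93 (adjusted p = 0.0106) and 0.64 (adjusted p = 0.0329). Those 2 were also 0.91 higher in abdominal than in subcutaneous fat (adjusted p = 0.109 and 0.0735), the other 3 lay between -0.15 and 0.23, and none passed between the depots. The MEG3 probe set at 0.64 had the tissue order of the DLK1 means, with means of 5.29 on the abdominal, 4.37 on the subcutaneous and 4.65 on the muscle arrays, all dim. Another, at 0.14 in abdominal fat minus muscle, had this order too, with means of 6.70, 6.47 and 6.56. On abdominal replicates 1, 2 and 3 these 2 read 5.10, 5.58 and 5.18, and 6.58, 6.88 and 6.64, lowest on replicate 1. The other 3, with the brightest among them, were lowest on replicate 3. BLCAP is the gene inside which NNAT lies in the RefSeq table. Both BLCAP probe sets were lower in adipose tissue than in muscle, by differences of -0.83 ± 0.13 (adjusted p = 0.000441) and -1.23 ± 0.17 (adjusted p = 0.00016), where NNAT was higher. The depot difference passed for neither (-0.20, adjusted p = 0.624, and 0.23, adjusted p = 0.667).

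Receptors and carriers of FGF2 mostly rose in adipose tissue, with 13 of 20 higher, 1 lower and 6 not passing (median 1.08). The receptor FGFR1 read 7.43, 7.51 and 7.92 in abdominal fat, 8.08, 7.69 and 7.70 in the subcutaneous depot, and 5.52, 5.16 and 5.84 in muscle. It rose by 2.21 ± 0.18 (adjusted p = 5.66e-06), and its other probe set by 0.32 ± 0.11 (adjusted p = 0.0342). KLB, the co-receptor of hormone-like FGFs (4.24), FGFR2 (2.28) and the heparan sulfate proteoglycan GPC3 (2.14) were also higher. FGFR4, dim on every fat array, fell by 0.52, a call that was lost without muscle replicate 1. No receptor or carrier passed between the depots in limma, where FGF2 itself was 1.33 higher in abdominal fat, and 2 higher and 3 lower had an unadjusted p under 0.05.

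Among 7 other FGF ligands, 2 were higher and 3 lower in adipose tissue. FGF10, a stromal growth factor that mouse preadipocytes need, rose by 2.47 ± 0.31 (adjusted p = 0.000103), and FGF12, dim in every tissue, by 1.41. FGF13 (-1.24), dim on every fat array, was lower, as were FGF11 (-0.75) and FGF8 (-0.49), both dim on every array. Genes that FGF signalling induces, and its inhibitors, had 4 of 7 higher and none lower. EGR1, an immediate-early gene that many stimuli induce, rose by 2.58 ± 0.39 (adjusted p = 0.000357). The FGF inhibitors SPRY1 rose by 2.0, SPRY2 by 1.38 and SPRED1, dim on every array, by 0.92. SPRY2 read 8.58, 8.95 and 8.75 in abdominal fat and 7.20, 7.72 and 7.77 in subcutaneous fat, with no overlap. That difference, 1.19 ± 0.32, did not pass (adjusted p = 0.11), and it passed under 2 of 16 alternatives. No FGF ligand, inhibitor or induced gene passed between the depots in limma, and 1 ligand and 3 of the others were higher at an unadjusted p under 0.05.

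**Figure D4:**
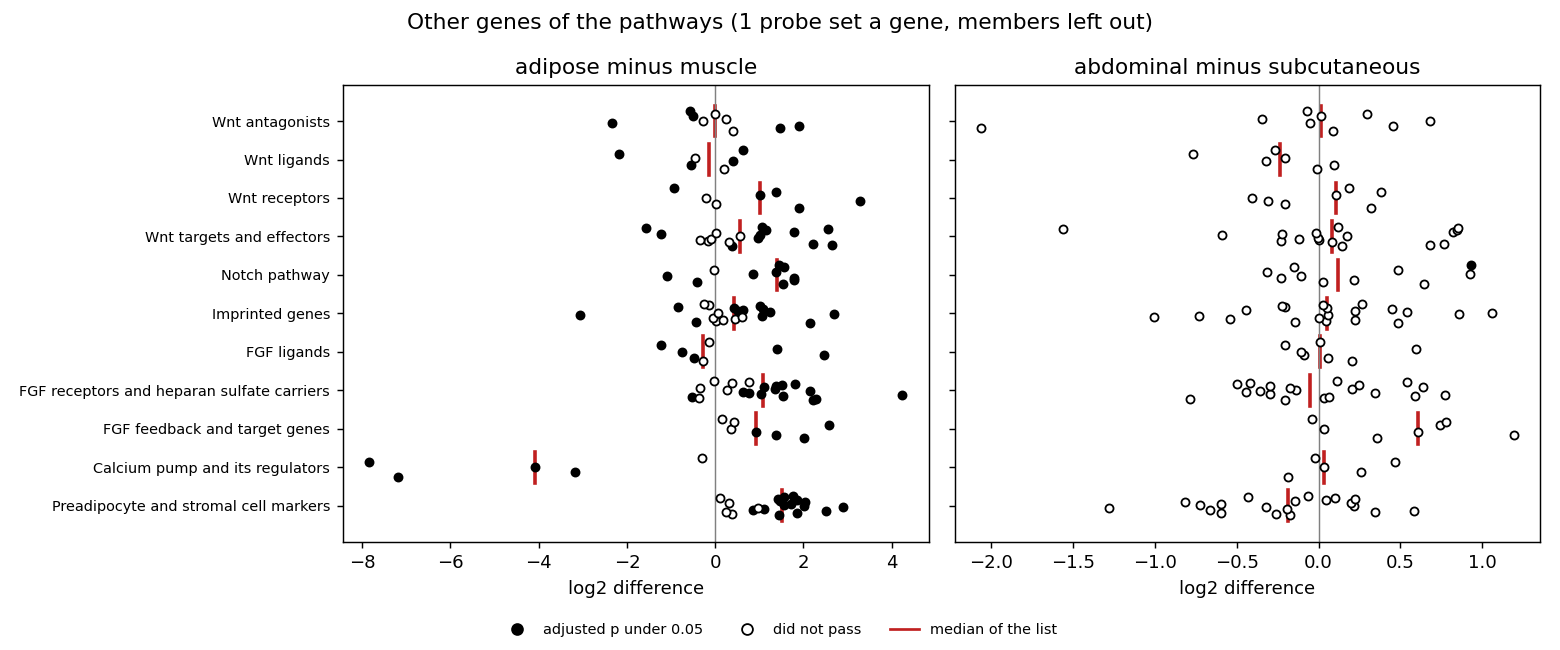
Log2 differences of the other measured genes of the pathway lists and the preadipocyte and stromal list, without the lists of other cell types (1 point a gene), in adipose tissue minus muscle (left) and abdominal minus subcutaneous fat (right); filled points passed an adjusted p of 0.05 and red bars are list medians. In the left panel receptors and carriers of FGF2 lie mostly above 0 (median 1.08) and the calcium pump list far below 0 (median -4.07); in the right panel 1 point, ADAM10, passed.

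NNAT resembles in form the small regulators of the calcium pump of the endoplasmic reticulum. Of 5 genes of that pump and its regulators 4 were lower in adipose tissue and none higher. The pump ATP2A2 fell by 3.18 ± 0.12 (adjusted p = 5.05e-08) and its inhibitor phospholamban, PLN, by 4.07 ± 0.28 (adjusted p = 2.18e-06), and the muscle pump ATP2A1 (-7.20) and its inhibitor SLN (-7.84) were the other lower genes. None of the 5 passed between the depots in limma, and none had an unadjusted p under 0.05.

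Markers of preadipocytes and stroma had 15 of 20 higher in adipose tissue than in muscle, none lower, and a median of 1.51. CD34 rose by 1.86 ± 0.16 (adjusted p = 7.61e-06) and the progenitor receptor PDGFRA by 1.45 ± 0.24 (adjusted p = 0.000596), and ICAM1 (2.90), ENG (2.51) and COL1A1 (2.04), which other cells also express, were among the higher. Between the depots this list did not share the direction of the chosen genes. Its median was -0.18, beside -0.04 over all genes, and none of 20 passed in limma. At an unadjusted p under 0.05, for which no background was counted, 4 were lower and 0 higher. In 6 of 20 every abdominal array lay below every subcutaneous array, against 13.9% of all probe sets, and in 1 above, against 9.69%. The share over genes read from 1 probe set was not counted. PDGFRA differed by -0.18 ± 0.27 (adjusted p = 0.859) and CD34 by -0.60 ± 0.18 (adjusted p = 0.152). The summed stromal markers were 31378 to 38790 on the abdominal and 39330 to 41409 on the subcutaneous arrays, a sum that bright matrix genes such as COL3A1 weigh most in. The part of the stromal cells in the depot differences was not tested.

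Markers of other cells moved between fat and muscle as well. Endothelial markers had 7 of 9 higher in adipose tissue and none lower, pericyte and smooth muscle markers 6 of 8 higher and 1 lower, and macrophage markers 7 of 7 higher. The lists for the abdominal lining (2 higher and 1 lower of 6) and for nerve (1 higher and 2 lower of 8) were mixed, and their counts shifted with single arrays left out: the lining list had 4 higher without abdominal replicate 2 and none lower without muscle replicate 1 or 2, and the nerve list had 2 higher without abdominal replicate 2 and 1 lower without muscle replicate 2. All 13 fat cell markers were higher and 6 of 7 myogenic markers lower. Muscle fibre markers had 11 of 12 lower, and the exception, CKM, was higher by its brightest probe set but not by the mean of its probe sets. Between the depots, endothelial markers had a median difference of 0.53, and their sum was 6365 to 7057 on the abdominal and 4766 to 5737 on the subcutaneous arrays. TEK passed (1.09 ± 0.18, adjusted p = 0.0293), and lost this call under 8 of 16 alternatives (adjusted p up to 0.0925). No gene of the other marker lists passed between the depots in limma. Of the 9 endothelial markers, 6 had every abdominal array above every subcutaneous array, against 9.69% of all probe sets. None lay wholly below, against 13.9%. Both shares are over probe sets, and the share over genes read from 1 probe set was not counted. At an unadjusted p under 0.05, 6 of the 9 were higher in abdominal fat and none lower. At that cut-off 2 genes each of the fat cell, muscle fibre, pericyte and lining lists were higher. Also, 3 nerve genes were lower, and no myogenic or macrophage gene reached it. The part of endothelial cells in the depot differences of SFRP2, NNAT and FGF2 was not tested.

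The genes most like each factor over the 9 arrays were found by Pearson correlation among 6771 other genes that reached a mean of 6 in at least 1 tissue. The arrays fall into tissues, and each reads all genes from 1 RNA sample, so these values describe the pattern only. FGF2 was most like LAMB1, a basement membrane laminin chain (0.991), RHOB (0.991), PLEKHG1 (0.991), the prostaglandin receptor PTGER3 (0.989) and TEK (0.987). SFRP2 was most like the vessel junction protein JAM2 (0.983), MAP2 (0.978), the apelin receptor APLNR (0.976), GATM (0.976) and the potassium channel KCNB2 (0.975).

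NNAT was most like DEFB4A, a defensin (0.972), SPP1, osteopontin (0.969), the leukocyte integrin ITGAD (0.969), S100A9, a protein of myeloid cells (0.965), and NHERF2 (0.955). All of these were lowest on replicate 1 among the abdominal arrays. SPP1 read 10.25, 11.96 and 12.11 on abdominal replicates 1, 2 and 3, 8.47, 8.83 and 10.09 in subcutaneous fat, and 8.44, 8.08 and 7.88 in muscle. DEFB4A read 6.80, 9.86 and 8.34 in abdominal fat, 5.03, 5.89 and 5.50 in the subcutaneous depot, and 4.75, 5.04 and 4.31 in muscle.

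DLK1 had no neighbour as close. The nearest was the translation factor EIF4B (0.925), followed by the hexokinase HK3 (0.922), the cysteine dioxygenase CDO1 (0.892), BAG5 (0.855) and DCPS (0.853). CDO1 read 7.28, 8.43 and 8.29 on abdominal replicates 1, 2 and 3, 5.78, 6.71 and 6.41 in subcutaneous fat, and 7.57, 7.14 and 7.27 in muscle. EIF4B was also lowest on abdominal replicate 1 but in a smaller range, with 10.29, 11.10 and 10.91.

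**Figure D5:**
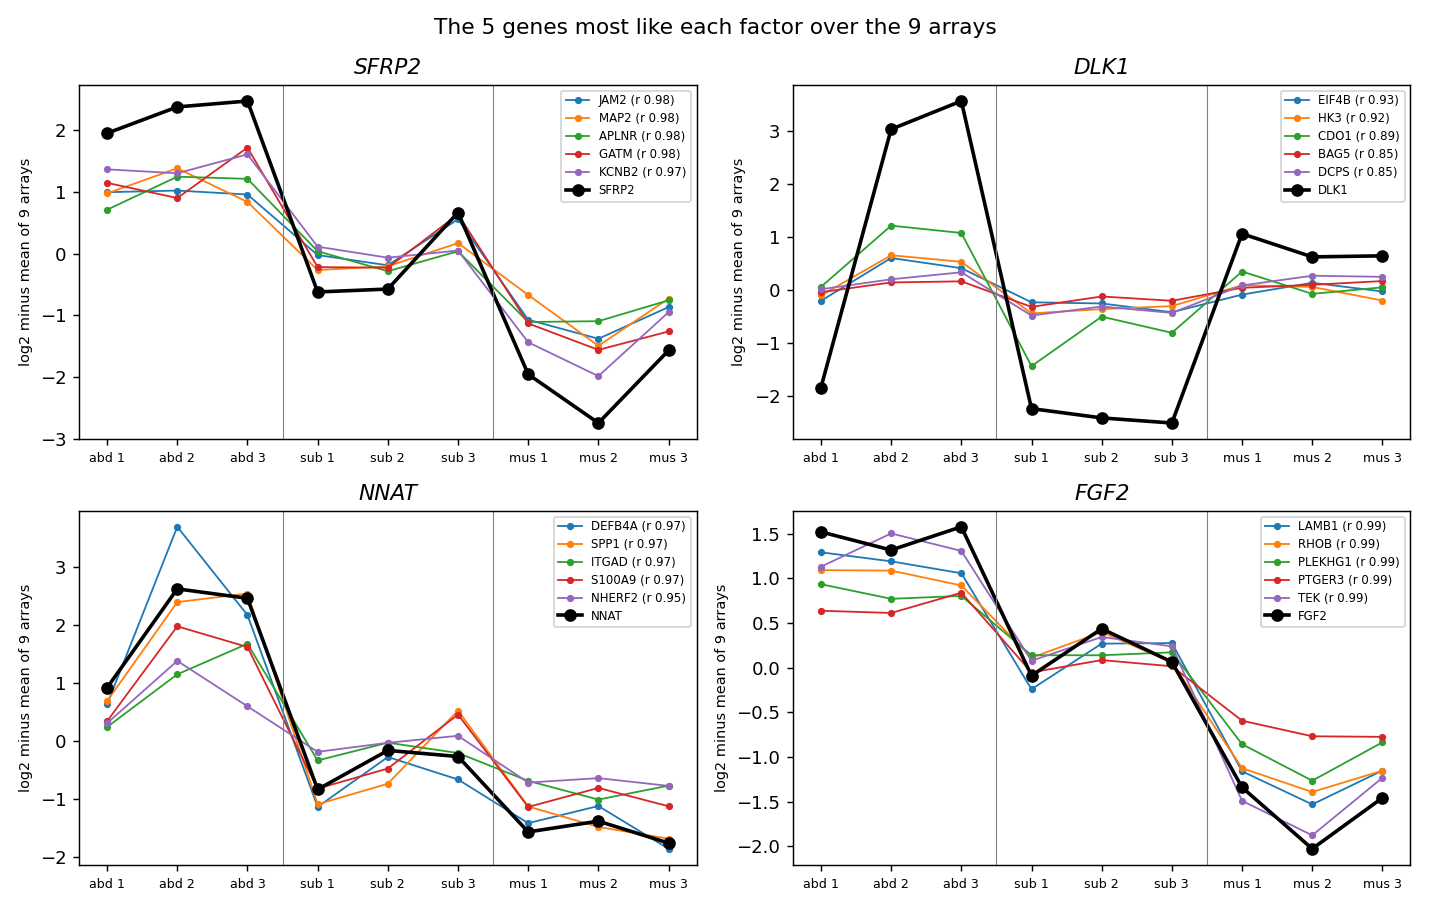
Log2 value minus the mean of the 9 arrays for each factor (black) and the 5 genes most like it (colours, with Pearson r), by array: abdominal (abd), subcutaneous (sub) and muscle (mus) replicates 1 to 3. The FGF2 panel shows lines that overlie its own closely (0.987 or more), while the DLK1 neighbours spread over a much smaller range than DLK1.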

How the data were processed

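Per the submitters' processing notes the arrays were processed with RMA, with details of that step not given in the sources used here. Each deposited intensity stands for 1 probe set on 1 array and is linear, and log2 was taken of it with no further normalization or filter. Of 24128 probe sets, 112 controls were left out. Symbols came from the array annotation, updated through the gene identifier to the RefSeq table: 13292 probe sets had 1 symbol, 86 several and 10638 none. A gene was read from its brightest probe set by the mean of 9 arrays. In R 4.3.3, limma 3.58.1 fitted a mean for each of the 3 tissues over the 9 arrays together (lmFit, eBayes, 6 residual degrees of freedom), with two-sided tests, Benjamini-Hochberg adjustment over 24016 probe sets and a threshold of 0.05. The procedure was tested on simulated data. The genes and the 19 lists were chosen with earlier results of these data known. Named from each list were up to 4 genes passing between adipose tissue and muscle and up to 3 between the depots, by size, or else the smallest p, plus a few fixed genes. The lower genes of some lists, AXIN2, LEF1 and other list genes outside this rule were named after their values were seen. NOTCH1 and NOTCH2 had no probe set with 1 symbol. Alternatives were log2(intensity + 16), array centring, quantile normalization, array weights, an intensity trend, a filter on dim probe sets, the mean of probe sets, a title number block and leaving out each array. Gene positions in the RefSeq table were used only to place NNAT and DLK1 beside their neighbours, and no sequences were used. Tables used pandas 2.3.3 and numpy 2.4.6 in Python 3.11.15, and plots matplotlib 3.10.9.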

Additional observations from a re-analysis of the deposited data

How the results depend on the processing

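The differences of SFRP2, DLK1, NNAT and FGF2 moved by more than the largest SD among the tissues compared under 5 of 284 alternatives. For DLK1 that SD was 2.98 wherever abdominal fat was compared, so large shifts stayed under it. Many alternatives, such as an intensity trend or leaving out an array of a tissue not compared, cannot change a difference. The 5 of 284 is thus no measure of how stable the differences are. With log2(intensity + 16) DLK1 in subcutaneous fat minus muscle was -2.69. With the mean of all its probe sets DLK1 was -2.40 there, and FGF2 was 2.39 in abdominal minus muscle, 1.13 in subcutaneous minus muscle and 1.76 in adipose tissue minus muscle. Leaving out an array in turn moved DLK1 from -0.18 to 2.52 in abdominal minus muscle. The count of probe sets called between the depots, 314, was 1034 with array weights and 118 with the title number as a replicate block. Abdominal replicate 3 was the only array with title number 8, so the block in effect left it out. The count was 36 at a threshold of 0.01 and 57 to 491 with an array left out, and the cause was not tested. Using the compared tissues alone was not run for adipose tissue minus muscle, which holds all 9 arrays. The other 3 comparisons kept their counts within 1.5 times. With arrays centred on their medians, adipose tissue minus muscle shifted by 0.12 and the share of higher calls was 39.2%, against 49.8%. Of the calls of named list genes 71 of 80 held under every alternative run. List counts moved by over 1.5 times under 8 of 152 other settings and under 35 of 684 with an array left out, the last chosen after seeing the data; by the mean of its probe sets no muscle fibre marker was higher in adipose tissue. Deviations of same-numbered samples correlated between 0.04 and 0.36, with 5 of 7 pairs over 0.1. Those of 20 pairs of different numbers lay between -0.32 and 0.17. The highest of these was for muscle replicate 3 (number 6) and abdominal replicate 3 (number 8). Of 8 arrays with a shared number, 5 correlated more with every array of their own number than with any array of another. Probe sets under 6 limit the sizes given for the dim tissues.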

Other observations

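On the class II histocompatibility gene BOLA-DQA5, a probe set picked after its values were seen, replicate 2 of abdominal fat, subcutaneous fat and muscle read 7.94, 7.53 and 6.77, and the other 6 arrays read 3.27 to 3.73. These 3 samples share the title number 5, and the labels do not say whether they share a bull. An unnamed probe set picked likewise read 10.63, 9.82 and 8.83 on replicate 3 of abdominal fat, subcutaneous fat and muscle. The other 6 arrays read 3.96 to 4.77 on it, and the replicate 3 samples bear title numbers 8, 6 and 6.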
